A study of Rattus norvegicus with 6 samples.

Results

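Blood and lymphatic endothelial markers are genes used to recognise the cells that line blood vessels (Pecam1, Cdh5, Kdr, Tek, Vwf and Flt1) and lymphatic vessels (Lyve1, Prox1, Flt4 and Pdpn). They were found by matching the RefSeq accession of each non-control probe to a rat gene symbol. A probe was matched for 9 of the 10 genes, 5 of 6 blood markers and 4 of 4 lymphatic markers, out of 15443 named genes on the array. Vwf was not matched and has no value here.

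The study injected stem cells cultured from fat tissue (ADSCs) that had been marked with 124I-HIB, a radioiodine compound which lodges in cell membranes and can be imaged. All samples came from Sprague Dawley rats aged 13 weeks, and RNA of each was read on a one-colour expression array. The 4 myocardial arrays, dated 21 days after operation in the labels, held 1 sham-operated heart sample, 1 sample of infarcted myocardium injected with buffer (PBS), and 2 of infarcted myocardium injected with tracer-labelled ADSCs. The last pair is called treated here and keeps its label numbers, replicates 1 and 3. The 2 cell arrays held unlabelled and tracer-labelled ADSCs at 14 days of culture. The labels do not name the region of the heart that was sampled, and they do not say whether the treated pair came from separate animals. Only the treated pair has a replicate, so any p-value rests on the spread between those 2 samples, which may be technical. The test drew each gene's spread part of the way toward that of all features. In samples of whole tissue, fewer cells of a type and less RNA per cell cannot be told apart.

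Endothelial cells hold to each other through the adhesion proteins Pecam1 (CD31) and Cdh5 (VE-cadherin). They respond to vascular endothelial growth factors (VEGFs) through the receptor tyrosine kinases Flt1, Kdr and Flt4, and to angiopoietins through Tek (Tie2). Kdr carries most VEGF-A signalling in blood vessels, Flt1 binds the same ligand and limits it, and Flt4 answers VEGF-C and VEGF-D in lymphatic vessels. Prox1 is the transcription factor that sets lymphatic identity, Lyve1 is a hyaluronan receptor of lymphatic endothelium, and Pdpn (podoplanin) is a surface glycoprotein. Lymphatic markers are not all exclusive: macrophages can carry Lyve1, mesothelium and many fibroblasts carry Pdpn, and heart muscle cells express Prox1.

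A level is the log2 processed signal of a gene's brightest probe minus the 75th percentile of its own array, so 0 is a signal at that percentile and a difference of 1 is 2-fold. Probes differ in brightness, so levels are compared between arrays and never between genes. A probe counted as measured on an array when at least 50% of its spots were well above background in the scanner's own call. Between 64.4% and 68.5% of probes were measured on each array, and no spot was saturated. Markers of the labelled tissue and cells were checked. The summed signal of 11 ventricular cardiomyocyte genes was 1833 to 2702 times the percentile signal on the myocardial arrays and 2.97 and 3.16 times on the cell arrays. That of 10 fibroblast and mesenchymal genes was 64.4 to 88.2 times in myocardium and 345 and 370 times in cells, and the mesenchymal stem cell marker Thy1 was measured on both cell arrays and on no myocardial array. Tcf21 of that list was the reverse, measured on all 4 myocardial arrays and neither cell array. Of 8 measured on all 6 arrays, 7 had higher means in cells and 1, Pi16, a lower one (-2.06). The PBS array stood apart in its makeup. Its summed signal over 9 atrial cardiomyocyte genes was 2.62 times that of sham, and over 8 mesothelial genes 6.21 times, against 0.990 and 0.855 times, and 1.01 and 1.07 times, on the treated arrays. In sham and on the treated arrays the atrial sum is carried by Myl4, which was bright on every myocardial array. Its level was 7.33 in sham, 7.10 in PBS, and 6.98 and 7.02 in the treated pair. The rise on the PBS array came from other genes, among them Myl7 (7.60 against -0.47 in sham) and Nppa (6.49 against 2.80). Some atrial genes also stood above sham on the treated arrays. Relative to sham, Myl7 stood at 2.49 and 1.30 in replicates 1 and 3, Nppa at 2.33 and 0.57, and Sbk2 at 0.75 and 0.98.

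Stretches of RefSeq sequence (assembly GRCr8) are given for members of the contrast between cells and myocardium that comes next, as the DNA just outside the gene's outermost annotated start. The promoter table held 5 of the 10 members (Flt1, Flt4, Kdr, Lyve1 and Pdpn). Flt1 is not printed, since its whole stretch lies inside the annotated gene. Capitals mark GGAA on either strand (GGAA or TTCC), the core that ETS factors such as Erg and Fli1 recognise, found by a search for those letters.

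Kdr, chr14:32571813-32572030, plus strand: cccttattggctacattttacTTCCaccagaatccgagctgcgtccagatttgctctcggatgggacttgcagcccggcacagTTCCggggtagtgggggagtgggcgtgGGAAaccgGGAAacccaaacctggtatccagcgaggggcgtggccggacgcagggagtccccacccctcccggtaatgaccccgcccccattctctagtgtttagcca
Flt4, chr10:34414584-34414833, plus strand: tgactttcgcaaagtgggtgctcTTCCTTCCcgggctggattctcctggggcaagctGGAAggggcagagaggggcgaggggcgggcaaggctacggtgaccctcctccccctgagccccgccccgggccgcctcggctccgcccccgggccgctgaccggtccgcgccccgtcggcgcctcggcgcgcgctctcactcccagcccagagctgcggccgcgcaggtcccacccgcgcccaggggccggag
Lyve1, chr1:174410978-174411227, minus strand: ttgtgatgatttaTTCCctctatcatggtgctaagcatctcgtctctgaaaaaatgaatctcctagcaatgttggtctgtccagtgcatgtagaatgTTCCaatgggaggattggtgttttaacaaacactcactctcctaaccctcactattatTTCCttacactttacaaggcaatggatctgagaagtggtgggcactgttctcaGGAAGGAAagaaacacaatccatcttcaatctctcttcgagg
Pdpn, chr5:160919113-160919209, minus strand: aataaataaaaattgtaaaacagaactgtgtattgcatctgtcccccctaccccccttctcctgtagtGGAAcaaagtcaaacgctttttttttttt

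The Kdr stretch held 4 matches in 218 bases, Flt4 3 and Lyve1 5 in 250, and Pdpn 1 in 97. Such cores are common: 90.7% of 33469 promoters held at least 1 in the same 218 bases, 93.2% in the 250 and 66.2% in the 97. The longer form CNGGAAG, which contains the core and was searched on both strands, matched 2 times at Flt4, 1 time at Lyve1 and 0 times at Kdr and Pdpn. It was found in 25.9%, 25.9%, 22.0% and 9.18% of promoters over the same windows. In base composition the genes differed: G and C made up 76.0% of the Flt4 stretch and 61.0% of the Kdr stretch, against 41.6% for Lyve1 and 36.1% for Pdpn, where the medians over all promoters lay between 49.5% and 51.2%. These matches describe letters only.

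The widest contrast was between heart tissue and cultured ADSCs. All 5 measured blood markers were at least 2-fold lower on both cell arrays than on every myocardial array, where 15.9% of the 15635 features measured on all 6 arrays were. Pdpn was the other way round, far higher in cells, where 14.2% of features were 2-fold higher. The cell and myocardial sets each pool conditions, so no test was made.

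Pecam1, an adhesion protein of the endothelial junction, had levels of 2.92 in sham, 2.83 in PBS, and 2.81 and 2.98 in treated replicates 1 and 3, against -3.53 in unlabelled and -3.57 in labelled cells. The myocardial arrays lay within 0.17 of each other and the cell arrays far below, a difference of means of -6.43 in log2. Kdr, the main VEGF-A receptor, had 4.17 in sham, 4.06 in PBS, and 3.85 and 4.20 in the treated pair, against -0.80 in unlabelled and -0.068 in labelled cells. Its difference was -4.50, and unlike Pecam1 it separated the cell arrays from each other. Tek, the angiopoietin receptor, had -3.13 in sham, -2.92 in PBS, -3.34 and -3.17 in the treated pair, -5.87 in unlabelled and -6.60 in labelled cells, where 1 of its 2 spots was well above background. Its difference of -3.10 became -2.04 with another background correction (normexp) and was not measured when every spot had to be above background. Flt1, the VEGF receptor that also acts as a decoy, had -1.64 in sham, -1.81 in PBS, -1.79 and -1.57 in the treated pair, and -3.55 and -3.50 in unlabelled and labelled cells, a difference of -1.82. Cdh5, VE-cadherin, had -0.19 in sham, -1.43 in PBS, -0.73 and -0.33 in the treated pair, and -2.75 and -2.86 in unlabelled and labelled cells, a difference of -2.14. Cdh5 therefore had its nearest approach between tissue and cells on the PBS array.

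Lymphatic markers did not act as a group in this contrast. Lyve1, the hyaluronan receptor, had -1.50 in sham, -1.06 in PBS, and -1.58 and -1.65 in the treated pair. On the cell arrays it was not well above background, with measured levels of -8.52 and -8.94. Each cell array was therefore set at the lowest signal that any probe well above background had on it. Against that signal Lyve1 was 86.0-fold lower in cells. Some probes not well above background lay above that signal, so it is a scale and not a strict bound. Prox1, the lymphatic transcription factor, was dim throughout. Its levels were -5.13 in sham, -5.36 in PBS and -5.66 in treated replicate 1, measured there by 1, 2 and 1 of its 2 spots, and -6.52 in treated replicate 3 and -8.69 and -8.73 in cells, where it was not well above background. On the same scale Prox1 was 4.61-fold lower in cells. Its myocardial mean took in all 4 arrays, of which 3 measured it.

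Flt4, the VEGF-C and VEGF-D receptor, had 2 probes that did not place the cells alike. The brighter probe had -2.76 in sham, -2.63 in PBS, -2.72 and -2.63 in the treated pair, and -3.25 and -3.27 in unlabelled and labelled cells, a cells minus myocardium difference of -0.57. The dimmer probe had -4.85 and -4.63 in cells and was measured on the PBS array alone of the myocardial 4, at -5.16. Against that array alone the cell mean stood at 0.42 from this probe and at -0.63 from the brighter one. No direction is given for Flt4 between cells and myocardium. The spots of the brighter probe lay up to 0.70 apart on an array, more than the 0.13 that separated its highest and lowest myocardial array.

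Pdpn had the highest cell levels relative to myocardium, and both its probes placed the cells above the PBS array. The brighter probe had -0.59 in sham, 0.64 in PBS, -0.50 and -0.047 in the treated pair, and 5.42 on each cell array. The cell arrays were thus 46.6-fold above the mean of the myocardial arrays, a log2 difference of 5.54. The dimmer probe was measured on the PBS array and both cell arrays, and the cell mean was 5.12 above PBS, against 4.78 from the brighter probe. With or without the PBS array, 6 members were 2-fold apart between cells and myocardium.

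**Figure D1:**
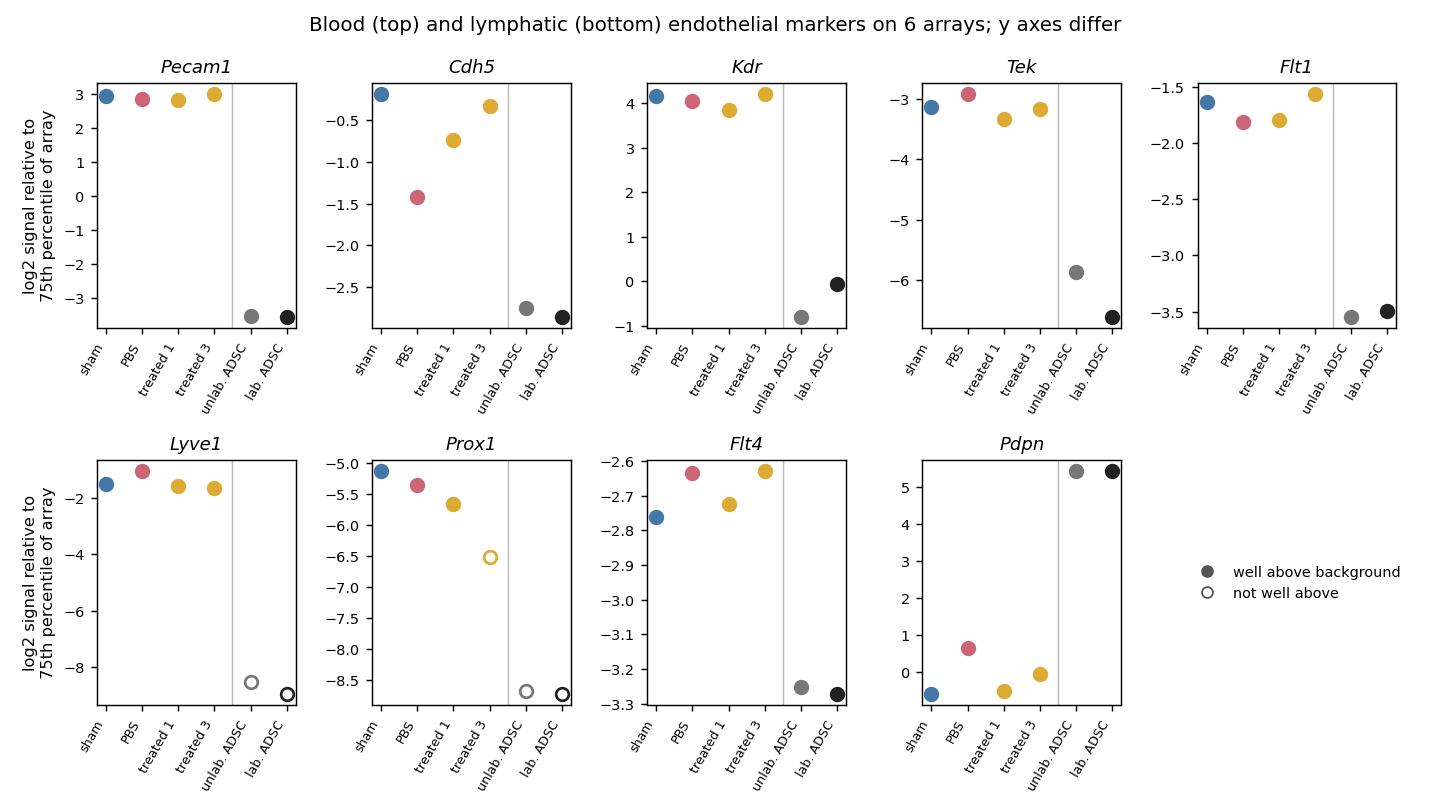
Level of each marker (log2 signal relative to the array's 75th percentile, y axis, scaled separately for each gene) on the 6 arrays (x axis; ADSC, adipose-derived stem cells; treated 1 and 3, the replicates), with 1 point an array, filled where the probe was well above background. The 5 blood markers in the top row lie lower on both cell arrays than on any myocardial array, Lyve1 and Prox1 drop out in cells, and Pdpn is far higher there.

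**Figure D2:**
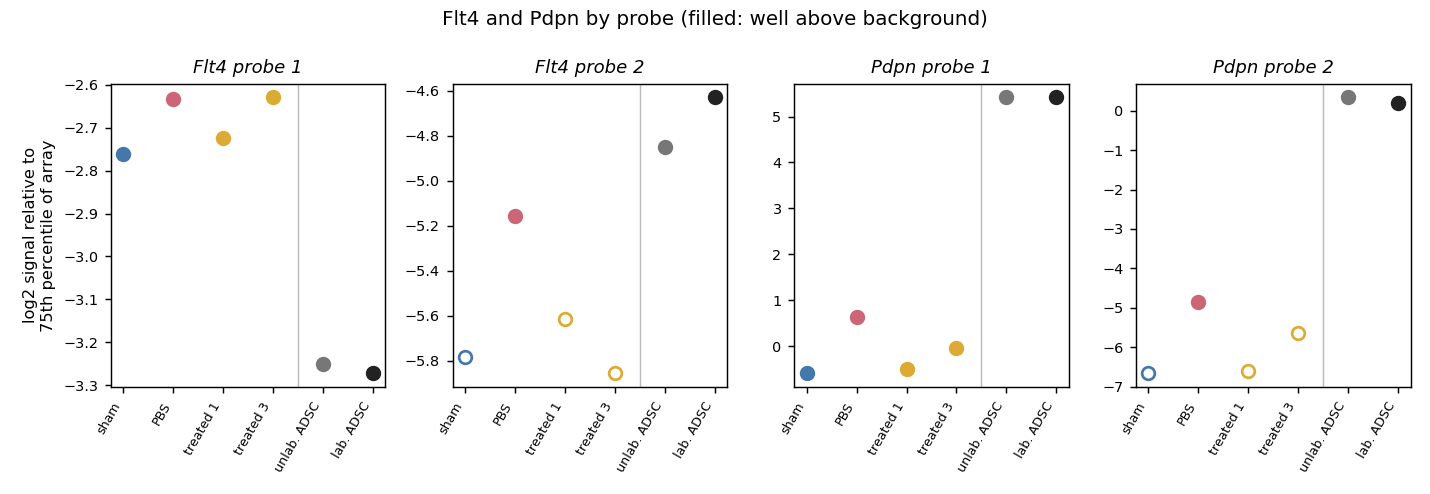
Levels from the brighter (probe 1) and dimmer (probe 2) probe of Flt4 and Pdpn (log2 signal relative to the array's 75th percentile, y axis, scaled separately) on the 6 arrays (x axis), filled where well above background. Relative to the PBS array, the only myocardial array on which both probes were measured, the Flt4 probes place the cell arrays on opposite sides, whereas both Pdpn probes place them above.

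Further blood endothelial genes were more often lower than higher in cells. Of 39 further blood endothelial genes, 32 were on the array and all 32 were measured on every myocardial array. In cells 13 of them were not well above background on either array, among them Tie1, Cldn5, Emcn, Nos3 and Sox17. Of all probes, 68.5% were measured on the unlabelled and 67.8% on the labelled cell array. The share of all features lost in cells in the same way was not counted. These 13 genes do not enter the counts and median that follow. Of 17 measured on all 6 arrays, 7 were 2-fold lower and 2 higher in cells, with a median difference of -0.81 against 0.028 over all features. The lower genes included the ETS factor Erg (-7.41), Notch4 (-5.61), the sphingosine phosphate receptor S1pr1 (-5.27) and the apelin receptor Aplnr (-5.17). The higher genes were Tal1 (1.73) and the coagulation inhibitor Tfpi (1.22).

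The ligands and co-receptors of these receptors were split as well. Of 11 VEGF, angiopoietin and neuropilin genes, 10 were on the array and 7 measured on all 6 arrays, 5 of them 2-fold lower and 2 higher in cells. Vegfd and Vegfc, the ligands of Flt4, were higher by 5.85 and 2.75. Vegfb (-3.31), Vegfa (-2.74), the neuropilin receptor Nrp1 (-2.43), placental growth factor Pgf (-1.78) and the Tek agonist Angpt1 (-1.49) were lower. Angpt4 was well above background on both cell arrays and on no myocardial array, and Angpt2, the Tek antagonist, on all 4 myocardial arrays and neither cell array.

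PBS-injected infarcted myocardium was next set against sham, to ask whether the vessel markers differed after infarction. Of 9 markers measured on both arrays, Cdh5 was 2-fold lower and Pdpn 2-fold higher. Over all 17249 features measured on both, 1.44% were 2-fold lower and 2.23% higher. There was 1 array on each side, so these differences have no replicate check.

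Cdh5 was lower on the PBS array by a log2 difference of -1.24, a level 2.36-fold below sham that placed it at percentile 0.725 of all measured features. The other blood markers lay close to sham: Pecam1 at -0.094, Kdr at -0.11, Flt1 at -0.18 and Tek at 0.20. For scale, the treated arrays differed from their mean by an SD of 0.12 for Pecam1, 0.25 for Kdr, 0.16 for Flt1 and 0.12 for Tek. The median of the 5 blood markers was -0.11, against -0.048 for all features. Kdr and Pecam1 turned to differences above 0 with quantile normalization and in the authors' deposited table, and Tek turned to -0.079 with normexp, so these 3 have no stable direction. Cdh5 kept its own, between -1.27 and -1.11 under 6 alternatives.

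On the lymphatic side, Pdpn was higher by 1.23, a 2.35-fold difference at percentile 98.6, and between 1.15 and 1.52 under the alternatives. Its brighter probe had 1 spot on each array, and its dimmer probe was well above background on the PBS array and not on the sham array. Lyve1 was higher by 0.44 (1.36-fold, percentile 90.1). Flt4 differed by 0.13 and turned to -0.10 with normexp. Prox1 differed by -0.23, while its spots on the sham array lay 0.71 apart. The median of the 4 lymphatic markers was 0.28.

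Other blood endothelial genes gave a similar picture of small differences with a few exceptions, and other vascular lists did not. The median was 0.50 over 8 measured genes of activated endothelium and 0.42 over 5 further lymphatic genes, against -0.048 for all features. Among the 32 further blood endothelial genes, 17 lay above sham and 15 below, with a median of 0.035. Procr, the endothelial protein C receptor, was the 1 gene 2-fold apart, at 1.06, followed by Gpihbp1 (0.88), which holds lipoprotein lipase on capillaries, the junction claudin Cldn5 (0.86) and Ephb4 (0.41). Cldn5 and Cdh5, both junction proteins, thus differed in opposite directions. Of 8 measured genes of activated endothelium none was 2-fold apart: the leukocyte adhesion molecules Vcam1 and Icam1 stood at 0.89 and 0.86, and Apln and Esm1 at -0.94 and -0.93. Selp, of the same list, was well above background in sham (-5.42) and not on the PBS array or either treated array. All 5 further lymphatic genes measured on both arrays lay above sham, and 2 were 2-fold higher, the lymphatic chemokine Ccl21 (4.42) and the valve factor Foxc2 (1.61). Outside those 5, Nrp2 was well above background in sham (-4.80) and not on the PBS array or either treated array. Reln was well above background on the PBS array and both treated arrays, and not in sham. Cldn11 was well above background on the PBS array and not in sham or on either treated array. Among ligands and co-receptors, Pgf stood at 0.60, Vegfd at 0.58, Vegfa at -0.52 and Angpt1 at 0.39.

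Markers of other cells moved beside the lymphatic ones on the PBS array. Of 8 mesothelial genes 7 were measured on it, against 2 in sham and 3 on each treated array. Msln had a level of 0.94 on the PBS array, -6.85 in sham, and -6.17 and -6.03 in the treated pair, and Upk1b -0.10 against -7.14, -6.33 and -6.44. Atrial genes were higher too, Myl7 by 8.07, and the summed endocardial signal was 2.07 times that of sham. Of 10 mural genes the contractile ones were higher, Acta2 by 1.94, Tagln by 0.85 and Myh11 by 0.73, and Cnn1 was measured on the PBS array alone of the myocardial 4. All 11 ventricular cardiomyocyte genes lay below sham, with a median of -0.47, and their summed signal was 0.720 times that of sham, and 0.678 and 0.762 times on the treated arrays. The part of these cells in the Pdpn, Lyve1 and Cdh5 differences was not tested. The summed macrophage signal was 1.07 times that of sham, 0.830 and 0.898 times on the treated arrays, and the platelet signal 1.17, 1.06 and 1.25 times. The summed mural signal was 1.18, 1.04 and 1.22 times that of sham, and the summed fibroblast and mesenchymal signal 1.16, 0.850 and 0.957 times. Marco, Ppbp, Smoc1 and Krt8 of the macrophage, platelet, endocardial and mesothelial lists were not well above background on any myocardial array.

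**Figure D3:**
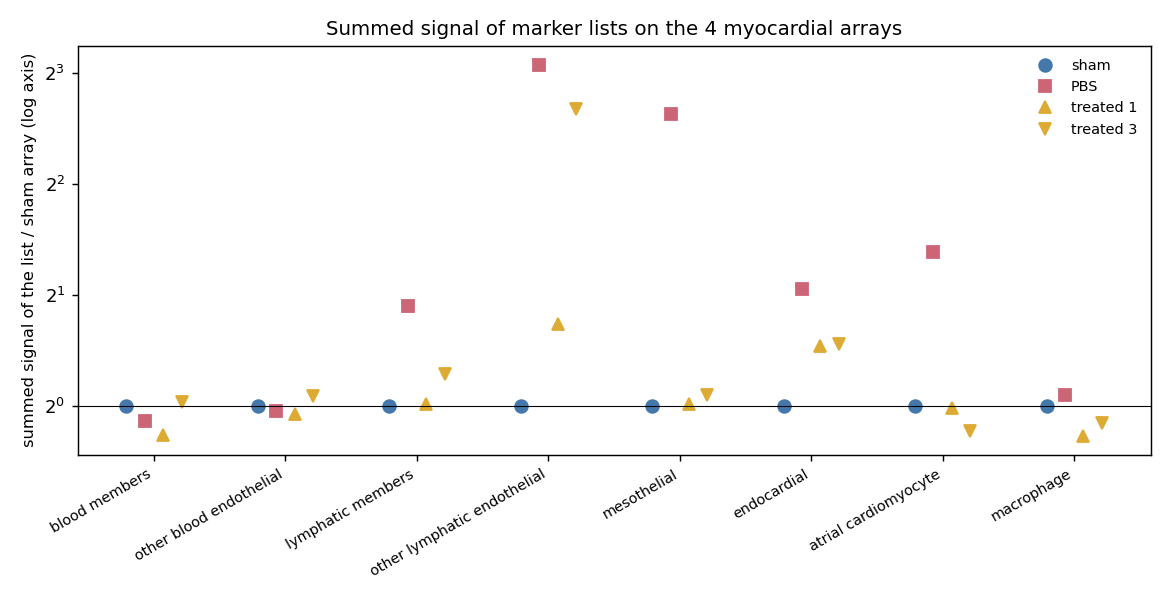
Summed signal of marker lists on each of the 4 myocardial arrays, as a ratio to the sham array (y axis, log scale; 1 point an array, colour and shape by array). The blood lists stay within 0.835 and 1.06 times sham, while the lymphatic, mesothelial, endocardial and atrial lists are highest on the PBS array, with treated replicate 3 close behind for the further lymphatic list. On every myocardial array most of the blood member sum is Kdr and Pecam1, so the Cdh5 difference hardly enters it. On the PBS array most of the lymphatic member sum is Pdpn. Most of the further lymphatic sum on the PBS array and in treated replicate 3 is Ccl21.

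Treated myocardium was compared with PBS to ask how labelled ADSCs left the same markers. On both treated arrays together no marker differed 2-fold from PBS (1.26% of 17332 features did). Of 9 markers tested, 0 had a limma adjusted p under 0.05, and so did 0% of 19595 features. At an unadjusted p under 0.05 there were 3 markers, Cdh5, Lyve1 and Pdpn, and 1890 features in all. Other fits called 82 features (normexp), 58 (trended, robust spread) and 11 (every spot above background), but none of the markers.

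Cdh5 stood above the PBS array by 0.69 in treated replicate 1 and 1.10 in replicate 3, a mean of 0.90 ± 0.29 (SD, n = 2; limma SE 0.25, adjusted p = 0.478). Both treated arrays lay between PBS and sham. The 2 Cdh5 spots lay 0.59 apart in treated replicate 1, 0.34 in sham, 0.069 in PBS and 0.0012 in replicate 3. Pdpn stood at -1.14 and -0.69 relative to PBS, a mean of -0.91 ± 0.32 (SD, n = 2; limma adjusted p = 0.487), again between PBS and sham in each array. Lyve1 stood at -0.52 and -0.60, a mean of -0.56 ± 0.051 (SD, n = 2; limma adjusted p = 0.485), which put both treated arrays slightly below sham. Over 7 alternatives the limma adjusted p ranged from 0.190 to 0.586 for Cdh5, 0.199 to 0.593 for Pdpn and 0.287 to 0.678 for Lyve1. All 3 genes were those farthest from sham on the PBS array, and this comparison and the last share that array. Of 9 measured fibroblast and mesenchymal genes, 8 had treated means below PBS, with a median of -0.36. Among them Pi16 was 2-fold lower in both treated arrays (-1.61). The part of fibroblasts, and of the mesothelial and atrial signal on the PBS array, was not tested here either.

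The remaining markers differed less, apart from the dim Prox1. Tek stood at -0.33 ± 0.12 (SD, n = 2; limma adjusted p = 0.668), lower in both treated arrays. Flt1 stood at 0.13 ± 0.16, Pecam1 at 0.064 ± 0.12, Kdr at -0.030 ± 0.25 and Flt4 at -0.043 ± 0.067 (SD, n = 2 each), all within or near the spread of the pair. Prox1 stood at -0.74 ± 0.61 (SD, n = 2; limma adjusted p = 0.700), but it was not well above background in treated replicate 3. The blood median was 0.064 and the lymphatic median, over Lyve1, Flt4 and Pdpn, -0.56, against 0.011 for all features. Without replicate 1 Cdh5 was 2-fold apart, and without replicate 3 Pdpn was, while the count over all features went from 219 to 445 and 513.

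Among further genes, none of 32 blood, 9 activated, 8 lymphatic and 9 ligand or co-receptor genes tested passed in limma after adjustment (2, 2, 2 and 1 had an unadjusted p under 0.05). Those with the largest mean differences were Cldn5 (-0.71 ± 0.15) and Dll4 (-0.58 ± 0.055) among blood genes, and Vcam1 (-0.76 ± 0.19) and Nr2f2 (-0.72 ± 0.079) among activated ones (SD, n = 2 each). Ccl21, at -1.73 ± 1.83 (SD, n = 2), had treated values far apart, -3.02 in replicate 1 and -0.43 in replicate 3. Ackr2, a chemokine scavenger of lymphatic endothelium, stood at -0.99 ± 0.025 (SD, n = 2; limma adjusted p = 0.336). Pgf and Angpt1 stood at -0.61 ± 0.074 and -0.55 ± 0.14 (SD, n = 2 each).

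Against sham, treated myocardium showed no marker 2-fold apart in both arrays, where 0.974% of 17049 features were. None passed in limma (0% of 19595 features did), and none had an unadjusted p under 0.05, as 1884 features did. Normexp called 50 features, a trended spread 51 and a fit on the authors' deposited table only 2, none of them a marker. Makeup differed here too. Myl7 was 2-fold above sham on both treated arrays, the summed endocardial signal was 1.46 and 1.47 times sham, and the means of all 11 ventricular genes lay below sham, with a median of -0.39. Their part in the marker values was not tested. The markers farthest from sham with every array measured were Cdh5 and Pdpn. They stood at -0.34 ± 0.29 for Cdh5 (SD, n = 2; limma adjusted p = 0.687) and 0.32 ± 0.32 for Pdpn (SD, n = 2; limma adjusted p = 0.718). Kdr stood at -0.14 ± 0.25, Tek at -0.13 ± 0.12, Lyve1 at -0.12 ± 0.051, Flt4 at 0.084 ± 0.067, Flt1 at -0.046 ± 0.16 and Pecam1 at -0.030 ± 0.12 (SD, n = 2 each). All 5 blood markers had means below sham, with a median of -0.13 where all features had -0.036, but Pecam1 turned to 0.044 with quantile normalization and 0.046 in the authors' deposited table. Treated replicate 3 alone put Pecam1, Kdr and Flt1 slightly above sham. Outside the markers, Ccl21 was 2-fold above sham in both treated arrays, by 1.40 and 3.99, and Foxc2 stood at 1.07 ± 0.14 (SD, n = 2; limma adjusted p = 0.394).

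**Figure D4:**
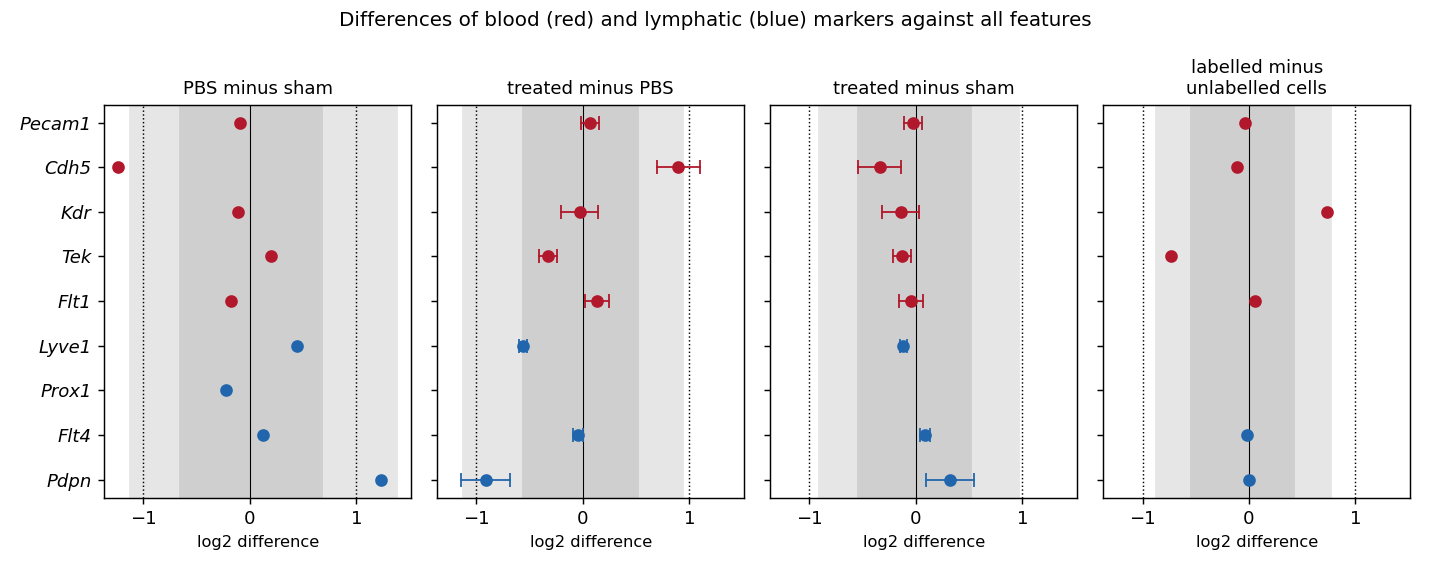
Log2 difference (x axis) of each marker in 4 comparisons: points are means, ticks joined by a line are the single treated arrays, red marks blood and blue lymphatic markers, dotted lines mark 2-fold, and grey bands hold the middle 90% (dark) and 98% (light) of all measured features. Markers not measured on every array compared are left blank. Cdh5 and Pdpn lie beyond 2-fold in PBS minus sham and on the opposite sides in treated minus PBS.

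Tracer labelling was the last contrast, with 1 array on each side and no replicate check. No marker of the 7 measured on both cell arrays was 2-fold apart, where 1.05% of 17965 features were. Kdr was higher in labelled cells by 0.73 (1.66-fold, percentile 98.8), between 0.69 and 0.73 under 6 alternatives. Tek differed by -0.74 at the edge of its background, and by -0.23 with normexp. The other 5 lay close together: Cdh5 at -0.11, Flt1 at 0.052, Pecam1 at -0.041, Flt4 at -0.021 and Pdpn at -0.0007. Under the alternatives Pecam1 reached 0.0094, Flt4 ran from -0.083 to 0.099 and Pdpn from -0.076 to 0.064, so these 3 have no direction. Lyve1 and Prox1 were not well above background on either array. Among further genes Gja5, a gap junction protein of arteries and of heart muscle, was 2-fold lower in labelled cells (-1.47), and Esm1 stood at 0.90, S1pr1 at -0.71 and Procr at 0.48. The ligands and co-receptors differed little, with the co-receptor Nrp1 at -0.37, Vegfa at -0.25 and Vegfd at 0.24 the largest.

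Genes with the profile most like each set over the 4 myocardial arrays were found by the root mean square difference of levels centred on each gene's own mean, among genes with a range of at least 0.5. The median blood profile was 0.068 in sham, -0.056 in PBS, and -0.092 and 0.13 in the treated pair, and the nearest of 3298 genes were Hsd17b1 (0.117), Ehd3 (0.117), Cnrip1 (0.119), Steap4 (0.119) and Ppp2r3b (0.120). The blood profile itself spans less than 0.5, so flatter genes that may lie nearer to it were left out by that filter. The median lymphatic profile, over Lyve1, Flt4 and Pdpn, was -0.074, 0.39, -0.13 and 0.058, highest in PBS. Its nearest were Linc00176 (0.0653), Meis1 (0.0654), Shld2 (0.0658), Prelp (0.0663) and Angptl2 (0.0667). With 4 arrays, likeness of this kind is a description only.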

How the data were processed

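The authors deposited scanner output with intensity values for 58717 non-control spots per array, which the submitters' processing notes credit to Agilent Feature Extraction 11.0.1.1. They also deposited a log2 table, and how it was normalized is not stated in the sources used here. Its columns correlated with log2 scanner signal at r of 0.9998 or more and shared medians within tissue (8.85) and within cells (9.67), so it was not used between them. Here each array was scaled to its 75th percentile (signals of 772 to 2615), flagged spots were dropped and spots of a probe averaged. Accessions named 18355 of 30367 probes (RefSeq, GRCr8, names only, as the file headers name an older build), which gave 27455 features. The treated comparisons used limma 3.58.1 (R 4.3.3) in 1 fit of 4 arrays over 19595 features measured on at least 1 of them, with Benjamini-Hochberg adjustment, and the lone sham and PBS arrays were assumed to vary like the treated pair. Each gene's spread was moderated toward that of all features, with 2.32 prior degrees of freedom beside 1 residual one. With 1 residual degree of freedom, a p that misses the threshold does not show that levels were alike. All arrays lay on 1 slide. Members, the 14 gene lists and tests were chosen with earlier results of these data known. Named from other lists are up to 4 genes with the largest differences, and those of small counts. Figures were drawn with matplotlib 3.10.9.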

Additional observations from a re-analysis of the deposited data

How the results depend on the processing

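The alternatives covered background correction (normexp, offset 50, on median signals), quantile normalization, the authors' deposited table, the mean over a gene's probes, no filter on dim probes, a trended and robust spread, a 3-fold threshold and single treated replicates. A filter on every spot and the omission of the PBS array were chosen after seeing the data. Of 131 values for sets of markers, 105 moved by less than the spread of the treated pair or stayed within 1.5 times a count, and 26 did not. Of 14 counts over all features past limma, 6 did not. Between cells and myocardium normexp moved the median of all features by -0.18 and quantile normalization by 0.12.

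The blood median of PBS minus sham was 0.029 with quantile normalization and 0.029 in the deposited table. For treated minus sham it ran from -0.21 to 0.033 as treated replicates were left out, and for cells minus myocardium it was -2.04 with normexp, -2.57 with quantile normalization and -3.32 with every spot above background. The lymphatic median of PBS minus sham was 0.099 with normexp, 0.45 in the deposited table, 0.41 with the mean over probes and 0.44 with every spot above background. For treated minus PBS it was -0.47 with normexp and -0.65 with no filter, and -0.60 to -0.42 with single replicates. For treated minus sham it was -0.060 with normexp, -0.017 with no filter, and -0.023 to 0.13 with single replicates. For labelled minus unlabelled cells it was 0.040 in the deposited table. For cells minus myocardium it was 2.37 with normexp, 2.65 with quantile normalization, 3.01 with the mean over probes, 2.62 without the PBS array, 2.42 to 2.51 with single replicates, and -1.81 with no filter, which adds Lyve1 and Prox1.

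No marker passed in limma under any fit. Features that passed for treated minus PBS were 82 with normexp, 58 with the trended spread and 11 with every spot above background, and for treated minus sham 50, 51 and, in the deposited table, 2. At 3-fold, 0 markers and 159 features were apart in PBS minus sham. In treated minus PBS 1 marker was 2-fold apart with either replicate left out, and 445 features without replicate 1 and 513 without replicate 3. Single genes that changed sign in the treated comparisons lay near 0: for treated minus PBS, Pecam1 (-0.021 to 0.15 with single replicates), Kdr (-0.20 to 0.15) and Flt4 (-0.091 to 0.0045, 0.041 with normexp and 0.0016 with quantile normalization). For treated minus sham they were Pecam1 (0.044 with quantile normalization, 0.046 in the deposited table, -0.115 to 0.056 with single replicates), Kdr (-0.32 to 0.033) and Flt1 (-0.16 to 0.067), and Flt4 (-0.060 with normexp). The cause of these moves was not tested. Leaving out a treated replicate leaves no spread, so those values have no test. Signal over background limits Prox1, Tek in cells and the dimmer Flt4 probe.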
